A study of Macaca mulatta with 34 samples.

Results

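Genes of the vessel wall, the blood-brain barrier and leukocyte adhesion were followed in rhesus macaques whose deep cerebellar nuclei (DCN), which carry the output of the cerebellum, received adeno-associated virus (AAV) vectors. The set holds 10 genes: CLDN5, MFSD2A and SLC2A1 of the barrier, PECAM1, VWF and FLT1 of endothelium, PDGFRB and RGS5 of mural cells, and VCAM1 and ICAM1 for leukocyte adhesion. Each symbol mapped to 1 Ensembl macaque identifier, which makes 10 of the 34847 identifiers present in all 22 DCN count tables. All 10 genes passed the filter on low counts in each of the 8 comparisons made.

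Study 1 compared 6 animals given AAV.miS1, an rAAV2/1 vector for RNA interference, with 4 given vehicle, and asked what lay behind the toxicity of that vector. Study 2 examined the immune response to other constructs and has 3 animals in each of 4 groups: StufferOnly, miSCA7Stuffer, intmiS1 and empty capsid. The first 3 are capsids with different cargo. Controls and vector groups alike were injected into the DCN under MRI guidance, and each library carries its own animal identifier. The labels state no age, sex, dose, promoter or time from injection to tissue collection. The StufferOnly, miSCA7Stuffer and intmiS1 comparisons share the same empty capsid libraries, so their results are given side by side and are not independent of each other.

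Several libraries stood apart. Study 1 libraries held 2049685 to 4810852 counts in genes, except vehicle replicate 2 with 87741, where ICAM1 rests on 1 read and VCAM1 and CLDN5 on 2 reads each. Study 2 libraries held 20978241 to 39792653 counts, except intmiS1 replicates 1 and 2, which were counted by STAR instead of featureCounts and held 5169866 and 4858179. Reads on the vector sequence, scaled to the gene counts of the library, came to 1.64 RPM in the library labelled miSCA7Stuffer replicate 1, against 349 and 257 in the other 2 of its group, 248 to 625.3 in StufferOnly and 0.151 to 0.281 in empty capsid. In Study 1 they were 22.2 to 548 with AAV.miS1 and 0.337 to 11.3 with vehicle, the highest being 1 read. Vector reads of intmiS1 were not analysed here, so its delivery was not checked. Levels below are CPM after TMM scaling within each study, and a fold change is given as log2 with its standard error (SE). The levels are of whole tissue, in which fewer cells of a type and less RNA per cell cannot be told apart.

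Brain capillary endothelium keeps blood and neural tissue apart by tight junctions between its cells and by few routes through them, while dedicated transporters bring in glucose and lipids. Pericytes, the mural cells of capillaries, sit on the endothelial tube and help to maintain that barrier. At rest this endothelium shows little of the adhesion proteins on which leukocytes arrest. During inflammation endothelial cells raise VCAM1 and ICAM1, which bind leukocyte integrins and let the cells cross the wall. Several of these proteins are not limited to vessels, since leukocytes carry PECAM1 and ICAM1, and glial cells can make ICAM1, VCAM1 and SLC2A1.

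ICAM1 rose with AAV.miS1 and with StufferOnly, PECAM1 and VWF rose with StufferOnly, and RGS5 fell with StufferOnly. No gene of the set was called for miSCA7Stuffer with all 3 libraries or for intmiS1, each against empty capsid. With AAV.miS1, 1 of the 10 genes was called higher and 0 lower (edgeR quasi-likelihood test, Benjamini-Hochberg adjusted p under 0.05 over all genes), beside 7.22% of all 13383 genes tested called higher and 0.284% lower, or 7.5% in either direction. The libraries did not overlap for 0 genes of the set higher and 1 lower (SLC2A1), beside 7.47% and 2.88% of all genes. With StufferOnly, 3 genes were called higher and 1 lower, beside 11.6% and 3.81% of 20882 genes, or 15.4% in either direction. The median log2 fold change of the 10 genes was -0.09 with AAV.miS1 and -0.19 with StufferOnly, near the medians of 0.02 over all genes in both comparisons. Of the 10 fold changes, those of the adhesion and clotting genes were positive in both comparisons and those of the barrier genes, FLT1 and RGS5 negative.

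**Figure D1:**
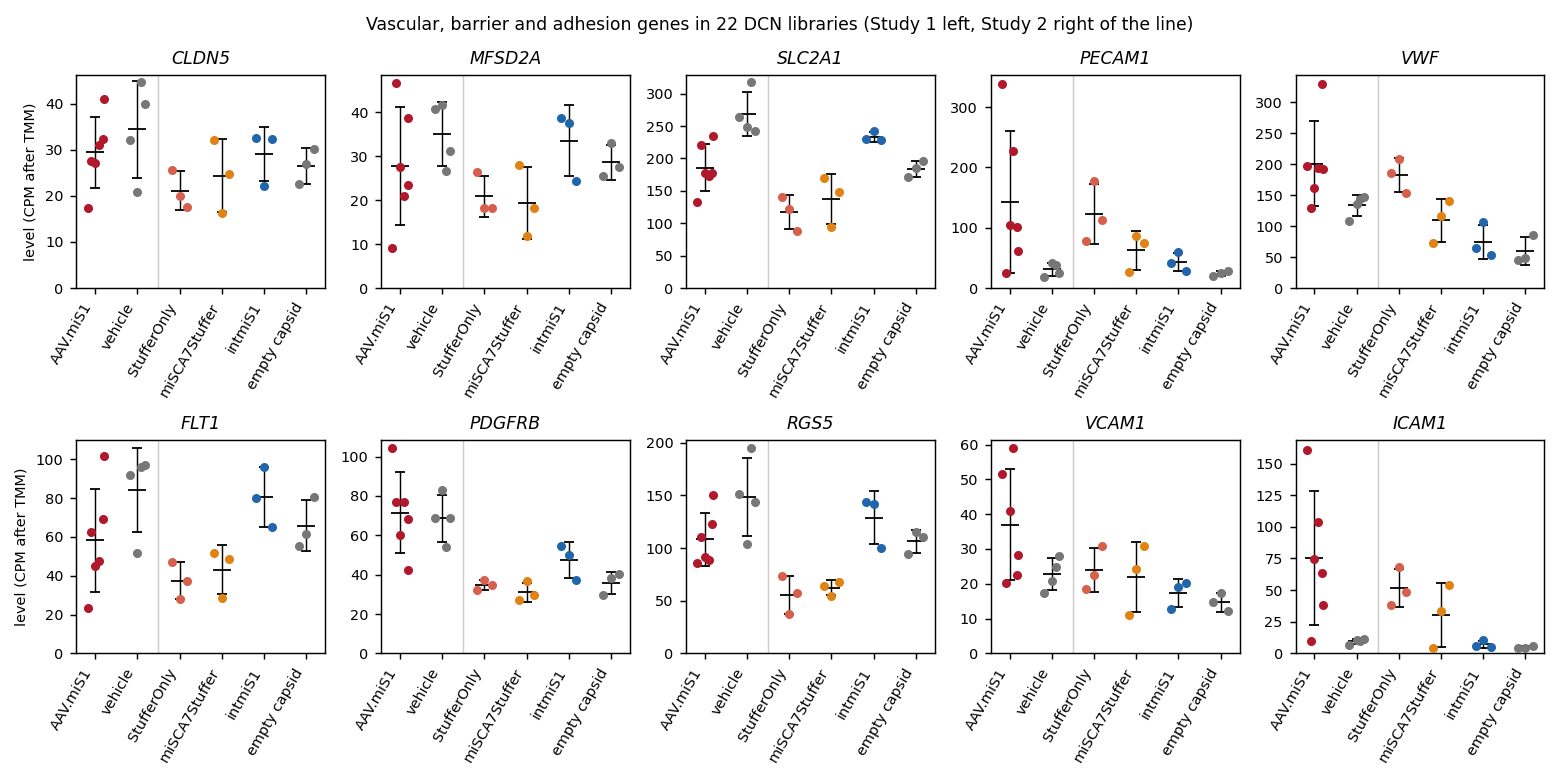
Levels of the 10 genes in CPM after TMM on linear axes that start at 0, with 1 point per library and a bar for the mean ± SD of each group. Study 1 (AAV.miS1, then vehicle) is left of the line and Study 2 (StufferOnly, miSCA7Stuffer, intmiS1, then empty capsid) right of it. ICAM1 lay between 38.2 and 68.0 CPM in the StufferOnly libraries and between 4.44 and 5.58 CPM in the empty capsid libraries.

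ICAM1 (ENSMMUG00000014896) is the ligand of the integrins that contain ITGB2 and holds leukocytes to endothelium. In the 6 AAV.miS1 libraries it had a lowest level of 9.87, a median of 69.2 and a highest of 161 CPM, against 6.93, 10.4, 11.2 and 9.61 CPM in the vehicle libraries. AAV.miS1 replicate 5 lay among the vehicle libraries, and the other 5 exceeded every one of them. ICAM1 was 8.02 times as high with AAV.miS1 as with vehicle (log2 3.003, SE 0.69, 95% interval 1.49 to 4.51, edgeR adjusted p = 0.0313). A two-sided exact permutation test on mean log2 CPM gave p = 0.0286 for 6 against 4 libraries, where 0.00476 is the smallest it can give. The edgeR call was lost without any 1 of the 4 vehicle libraries or without AAV.miS1 replicate 2 or 4, with adjusted p of 0.0508 to 0.138. Among the libraries with over 15% of reads unmapped, AAV.miS1 replicates 5 and 6 and vehicle replicates 2, 3 and 4, the log2 difference was 1.17 (edgeR adjusted p = 0.450), and the libraries under 15% include a single vehicle one.

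In Study 2, ICAM1 had 38.2, 68.0 and 48.3 CPM in StufferOnly libraries, 3.85, 33.2 and 54.3 CPM in miSCA7Stuffer, 6.10, 10.2 and 5.07 CPM in intmiS1, and 4.56, 4.44 and 5.58 CPM in empty capsid. All StufferOnly libraries were above all empty capsid libraries, miSCA7Stuffer was split between replicate 1 at the control level and the other 2 libraries, and intmiS1 overlapped the controls. ICAM1 was 10.6 times as high with StufferOnly as with empty capsid (log2 3.40, SE 0.77, interval 1.64 to 5.16, edgeR adjusted p = 0.0258). The miSCA7Stuffer difference of 2.65 (SE 0.75) was not called (edgeR adjusted p = 0.137). Without miSCA7Stuffer replicate 1 it was 3.14 (SE 0.28, edgeR adjusted p = 0.000122). The intmiS1 difference was 0.52 with an interval of -1.002 to 2.05, so a rise as large as that with StufferOnly lies outside it.

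VCAM1 (ENSMMUG00000022906), the endothelial ligand of integrins that contain ITGA4, moved less and was not called with all libraries in any comparison. It had a lowest level of 20.1, a median of 34.5 and a highest of 59.0 CPM with AAV.miS1, against 17.3, 20.8, 27.8 and 24.9 CPM with vehicle. The groups overlapped, with 4 of 6 AAV.miS1 libraries above the vehicle range (log2 0.68, SE 0.35, edgeR adjusted p = 0.229). In Study 2 it had 18.6, 22.5 and 30.7 CPM in StufferOnly, 10.9, 24.2 and 30.8 CPM in miSCA7Stuffer, 12.8, 19.1 and 20.2 CPM in intmiS1, and 14.7, 17.5 and 12.1 CPM in empty capsid. The StufferOnly libraries all lay above the empty capsid libraries, with a log2 difference of 0.70 (interval -0.12 to 1.52, edgeR adjusted p = 0.215). VCAM1 passed the test for miSCA7Stuffer only in the fit without its replicate 1 (log2 0.87, SE 0.24, edgeR adjusted p = 0.0221).

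PECAM1 (ENSMMUG00000011809), an adhesion protein at endothelial junctions that platelets and leukocytes carry too, had a lowest level of 25.5, a median of 103.0 and a highest of 338 CPM with AAV.miS1. The vehicle libraries had 19.0, 41.5, 24.7 and 38.5 CPM. Again 5 of 6 AAV.miS1 libraries exceeded the vehicle range and replicate 5 was inside it, and the difference of 2.32 (SE 0.68, interval 0.83 to 3.81) missed the threshold (edgeR adjusted p = 0.0607). It passed by DESeq2 (adjusted p = 0.00361) and by edgeR without AAV.miS1 replicate 5 (adjusted p = 0.0102) or 6 (adjusted p = 0.0464). Within the libraries over 15% unmapped, the PECAM1 difference was 0.42. The levels were 78.4, 177 and 113 CPM in StufferOnly, 26.3, 86.3 and 75.4 CPM in miSCA7Stuffer, 41.6, 59.6 and 28.8 CPM in intmiS1, and 19.6, 25.0 and 27.7 CPM in empty capsid. PECAM1 was 5.09 times as high with StufferOnly, where no library overlapped empty capsid (log2 2.35, SE 0.46, edgeR adjusted p = 0.0200). The 3 intmiS1 libraries were also above empty capsid, but by 0.84 with an interval of -0.13 to 1.81 (edgeR adjusted p = 0.591).

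VWF (ENSMMUG00000022893), the secreted multimer to which platelets bind, had a lowest level of 129, a median of 192 and a highest of 330 CPM with AAV.miS1, against 109, 135, 147 and 143 CPM with vehicle. Replicate 5 was again within the vehicle range, and the difference of 0.59 (SE 0.25) was not called (edgeR adjusted p = 0.158). In Study 2 the levels were 186, 208 and 154 CPM in StufferOnly, 72.3, 116 and 141 CPM in miSCA7Stuffer, 65.4, 106 and 53.4 CPM in intmiS1, and 45.4, 48.2 and 86.0 CPM in empty capsid. VWF rose with StufferOnly by log2 1.61 (SE 0.31, interval 0.89 to 2.32, edgeR adjusted p = 0.0200), with no overlap between the groups. The intmiS1 difference was 0.32 (interval -0.41 to 1.05) and that of miSCA7Stuffer 0.87 (interval 0.17 to 1.58), neither called with all libraries. Without miSCA7Stuffer replicate 1, VWF was called at 1.07 and PECAM1 at 1.71 (edgeR adjusted p = 0.0150 and 0.00253).

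FLT1 (ENSMMUG00000021538), a receptor for VEGFA on endothelial cells, was not called in any comparison with a control. It had a lowest level of 23.2, a median of 55.0 and a highest of 102 CPM with AAV.miS1, against 91.8, 51.9, 97.0 and 96.1 CPM with vehicle. The groups overlapped (log2 -0.61, SE 0.34, edgeR adjusted p = 0.262), and the lowest vehicle value is 5 reads (exact Poisson 95% interval 16.9 to 121 CPM, counting error only). StufferOnly libraries had 47.3, 28.0 and 37.2 CPM, miSCA7Stuffer 51.9, 28.7 and 48.8 CPM, intmiS1 80.3, 95.8 and 65.0 CPM, and empty capsid 55.1, 61.4 and 80.4 CPM. Both groups with a stuffer lay wholly below empty capsid, by 0.81 (edgeR adjusted p = 0.0792) and 0.61 (edgeR adjusted p = 0.225), and neither was called.

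Among the barrier genes, SLC2A1 (ENSMMUG00000000373), the glucose transporter of barrier endothelium and glia, was the one whose groups overlapped least. Its AAV.miS1 levels had a lowest of 132, a median of 178 and a highest of 234 CPM, against 264, 249, 242 and 318 CPM with vehicle. All 6 AAV.miS1 libraries were below all 4 vehicle libraries, and the difference of -0.54 (SE 0.18, interval -0.93 to -0.15) was not called (edgeR adjusted p = 0.0863). In Study 2 SLC2A1 had 140, 122 and 88.0 CPM in StufferOnly, 170, 93.9 and 148 CPM in miSCA7Stuffer, 230, 242 and 228 CPM in intmiS1, and 171, 185 and 196 CPM in empty capsid. The order of the groups was intmiS1, empty capsid, miSCA7Stuffer and StufferOnly from high to low, with only the last neighbours overlapping. Against empty capsid none of these differences was called, at -0.66 for StufferOnly (edgeR adjusted p = 0.0955), -0.42 for miSCA7Stuffer (0.305) and 0.34 for intmiS1 (0.648).

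MFSD2A (ENSMMUG00000011264), which carries lysophospholipids with omega fatty acids across the barrier and limits transcytosis, overlapped between vector and control in every comparison with all libraries. It had a lowest level of 9.02, a median of 25.5 and a highest of 46.6 CPM with AAV.miS1, against 40.7, 41.5, 31.2 and 26.5 CPM with vehicle (log2 -0.29, interval -1.14 to 0.57, edgeR adjusted p = 0.644). StufferOnly libraries had 26.3, 18.3 and 18.1 CPM, miSCA7Stuffer 28.0, 11.9 and 18.1 CPM, intmiS1 38.7, 37.6 and 24.3 CPM, and empty capsid 25.4, 32.9 and 27.5 CPM. The differences from empty capsid were -0.45, -0.56 and 0.22, none called. Without miSCA7Stuffer replicate 1, MFSD2A fell in that group by 0.96 on the log2 scale (SE 0.25, edgeR adjusted p = 0.0180).

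CLDN5 (ENSMMUG00000060434), the main tight junction claudin of brain endothelium, showed no called difference. Its AAV.miS1 levels had a lowest of 17.3, a median of 29.3 and a highest of 41.0 CPM, against 32.0, 20.8, 39.9 and 44.8 CPM with vehicle (log2 -0.34, interval -0.88 to 0.21, edgeR adjusted p = 0.383). In Study 2 it had 25.7, 20.0 and 17.5 CPM in StufferOnly, 32.0, 16.2 and 24.8 CPM in miSCA7Stuffer, 32.6, 22.2 and 32.3 CPM in intmiS1, and 22.5, 26.8 and 30.2 CPM in empty capsid. All 4 groups overlapped. The StufferOnly interval, -0.92 to 0.26, leaves room for a fall of almost the size seen for RGS5.

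RGS5 (ENSMMUG00000005186), a regulator of G protein signalling that marks pericytes, was the gene of the set that fell with StufferOnly. The levels were 73.1, 37.1 and 57.2 CPM in StufferOnly, 64.3, 54.2 and 68.1 CPM in miSCA7Stuffer, 144, 142 and 99.8 CPM in intmiS1, and 94.5, 116 and 110 CPM in empty capsid. Both groups with a stuffer lay wholly below empty capsid and intmiS1 overlapped it. RGS5 fell by 0.94 on the log2 scale with StufferOnly (SE 0.23, edgeR adjusted p = 0.0315), while the miSCA7Stuffer difference of -0.78 (SE 0.23) was not called with all libraries (edgeR adjusted p = 0.138) and the difference of -0.84 without replicate 1 was (edgeR adjusted p = 0.0401). With AAV.miS1 RGS5 had a lowest level of 86.1, a median of 101 and a highest of 151 CPM, against 152, 104, 144 and 195 CPM with vehicle. These overlapped (log2 -0.49, SE 0.21, edgeR adjusted p = 0.161).

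PDGFRB (ENSMMUG00000011557), the receptor through which endothelial PDGFB recruits pericytes, did not follow RGS5. It had a lowest level of 42.5, a median of 72.5 and a highest of 105 CPM with AAV.miS1, against 68.8, 83.1, 68.9 and 54.0 CPM with vehicle (log2 0.11, interval -0.42 to 0.63, edgeR adjusted p = 0.794). StufferOnly libraries had 32.1, 37.5 and 35.0 CPM, miSCA7Stuffer 27.2, 36.6 and 29.4 CPM, intmiS1 54.7, 50.2 and 37.1 CPM, and empty capsid 29.5, 38.1 and 40.1 CPM. StufferOnly sat inside the empty capsid range (log2 -0.04, interval -0.42 to 0.34, edgeR adjusted p = 0.876), so a change as large as the fall of RGS5 lies outside that interval.

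**Figure D2:**
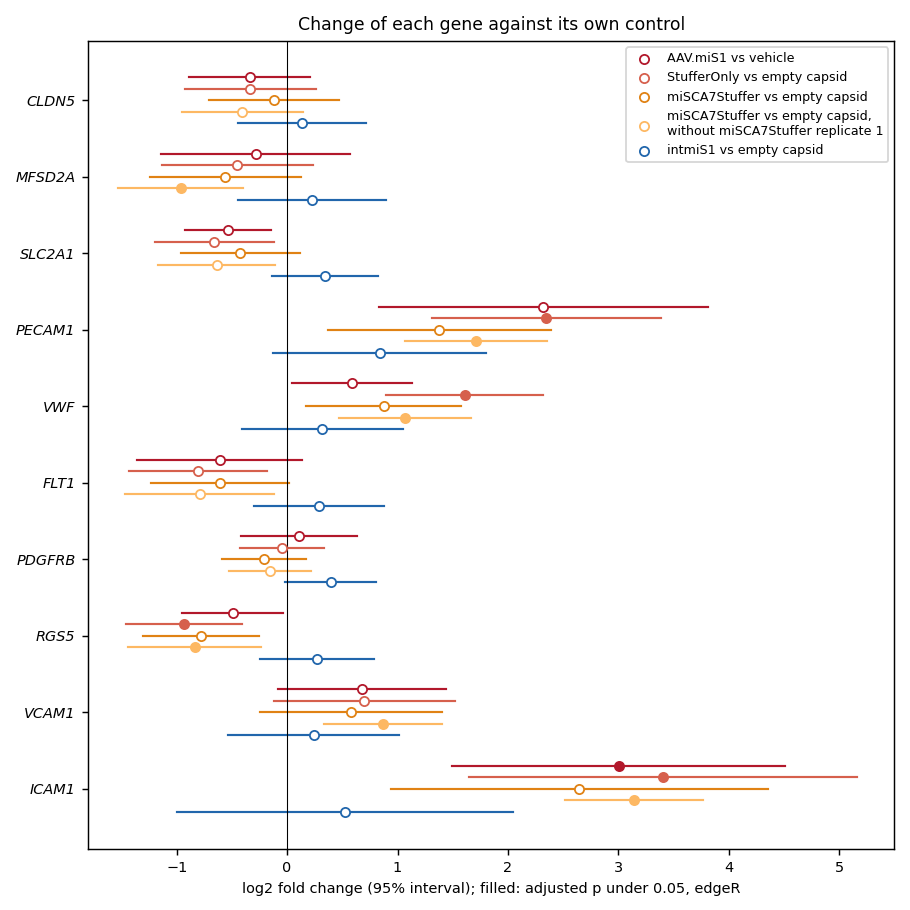
The log2 fold change of each gene against its own control on the x axis, as a point with its 95% interval, filled where the edgeR adjusted p was under 0.05. The comparisons run AAV.miS1 against vehicle, then StufferOnly, miSCA7Stuffer, miSCA7Stuffer without replicate 1, and intmiS1 against empty capsid. ICAM1 is the gene farthest to the right with AAV.miS1 (3.003) and with StufferOnly (3.40), and RGS5 is the farthest to the left with StufferOnly (-0.94).

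All 4 StufferOnly calls were lost when any 1 empty capsid library, or StufferOnly replicate 2 or 3, was left out, and in those fits 0 to 53 genes of the whole table passed in place of 3219. In the fit of the 6 StufferOnly and empty capsid libraries alone, 7 members passed: the same 4 with FLT1, SLC2A1 and VCAM1. The share of all genes called in that fit is not given here, so the 7 are not a result about the set. Groups that did not overlap were common in this comparison: 4 members were higher in every StufferOnly library and 3 lower, beside 26.8% and 22.2% of all genes. For miSCA7Stuffer against empty capsid, 0 members passed in edgeR with all libraries, beside 0.00479% of 20882 genes, while 4 members and 4808 genes had an unadjusted p under 0.05. DESeq2 called 3 members (PECAM1, RGS5 and ICAM1), and the share of all genes it called is not given here. Without miSCA7Stuffer replicate 1, 4 members passed as higher and 2 as lower, beside 15.6% and 16.8% of 21539 genes, or 32.4% in either direction. In that fit 4 members were higher in both miSCA7Stuffer libraries than in any empty capsid library and 4 lower, beside 32.7% and 29.8% of all genes. For intmiS1 against empty capsid, 0 members and 0% of 21501 genes passed in edgeR, 0 members and 1831 genes had an unadjusted p under 0.05, and DESeq2 called 52 genes and 0 members. SLC2A1 and PECAM1 were higher in every intmiS1 library than in any empty capsid library, beside 9.51% of all genes.

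The libraries of a group differed from each other across the set. AAV.miS1 replicate 1 had the highest ICAM1 (161 CPM), PECAM1 (338 CPM) and PDGFRB (105 CPM) of its group, and the lowest SLC2A1 (132 CPM), MFSD2A (9.02 CPM), CLDN5 (17.3 CPM), FLT1 (23.2 CPM) and RGS5 (86.1 CPM). In that library 8 neuron markers summed to 31.0 CPM, against 604 to 3557 CPM in the other 5 AAV.miS1 libraries and 1890 to 3719 CPM in vehicle, so the markers of the labelled tissue's neurons were nearly absent from it. Without it ICAM1 was still called (log2 2.64, edgeR adjusted p = 0.0276). AAV.miS1 replicate 5 had ICAM1 at a log2 ratio of 0.05 and PECAM1 at -0.28 to the vehicle mean and neuron markers at 3557 CPM. Vector reads were alike in these libraries, at 22.2 RPM in replicate 1 and 24.03 RPM in replicate 5, the lowest of their group. miSCA7Stuffer replicate 1 had ICAM1 at -0.34, VCAM1 at -0.43 and PECAM1 at 0.13 against the empty capsid mean, but RGS5 at -0.73, like the other 2 libraries of its group.

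**Figure D3:**
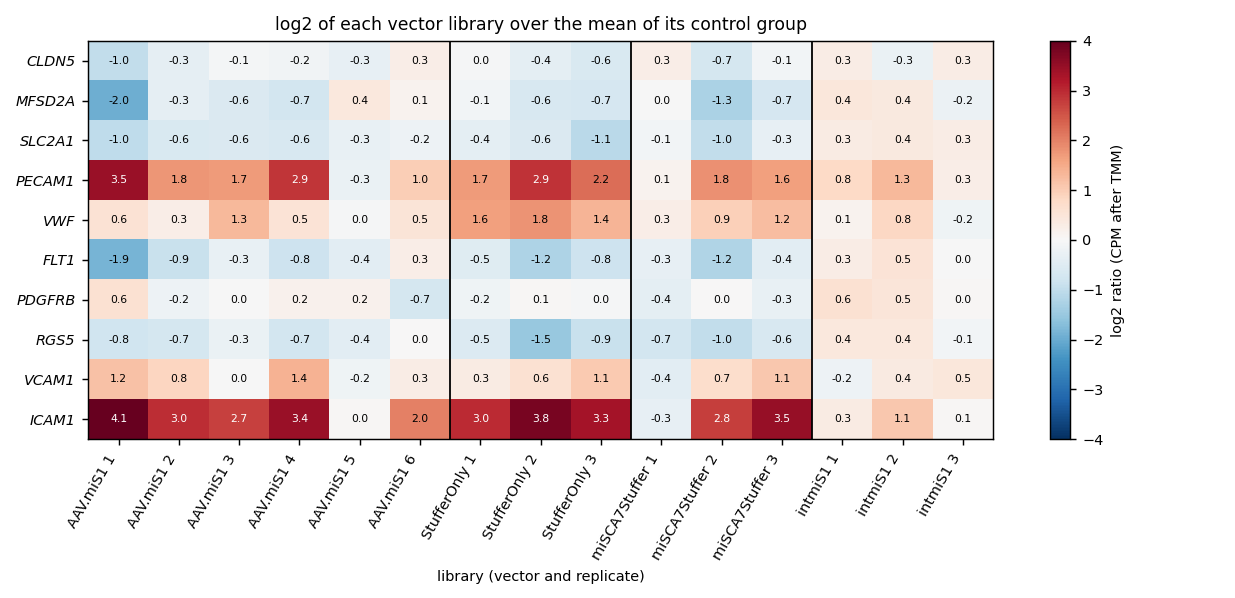
The log2 ratio of each vector library to the mean of its control group, for the 10 genes (rows) in 15 libraries (columns, grouped as AAV.miS1, StufferOnly, miSCA7Stuffer and intmiS1). Red is higher and blue lower than the control mean. ICAM1 runs from 0.05 in replicate 5 to 4.08 in replicate 1 within AAV.miS1 and from -0.34 to 3.48 within miSCA7Stuffer.

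No gene of the set was called between the 2 vectors with a stuffer. For miSCA7Stuffer against StufferOnly, 0 members and 0% of 20882 genes passed in edgeR, 1 member (VWF) and 2117 genes had an unadjusted p under 0.05, and DESeq2 called 476 genes and 0 members. VWF was lower in every miSCA7Stuffer library (72.3, 116 and 141 CPM) than in any StufferOnly library (186, 208 and 154 CPM), as were 8.42% of all genes (6.24% were higher, and 0 members), by a log2 difference of -0.73 (interval -1.43 to -0.03, edgeR adjusted p = 0.473). The ICAM1 difference of -0.76 has an interval of -2.36 to 0.84, which is too wide to call the 2 vectors alike.

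Set directly against StufferOnly, intmiS1 had less ICAM1 and VWF and more RGS5, FLT1 and SLC2A1. CLDN5, MFSD2A, PDGFRB and VCAM1 overlapped between these groups and were not called. ICAM1 was lower by 2.88 on the log2 scale (SE 0.72, interval -4.47 to -1.29, edgeR adjusted p = 0.0294) and VWF by 1.29 (SE 0.34, edgeR adjusted p = 0.0340). RGS5 was higher by 1.204 (SE 0.24, edgeR adjusted p = 0.0149), FLT1 by 1.10 (SE 0.27, 0.0283) and SLC2A1 by 1.00 (SE 0.22, 0.0194), and PECAM1 missed the threshold at -1.51 (SE 0.44, 0.0502). The 3 higher and 2 lower calls stand beside 3.4% and 8.46% of 21501 genes called, or 11.9% in either direction. In none of these 6 genes did the intmiS1 and StufferOnly libraries overlap, which makes 3 members higher and 3 lower in every intmiS1 library, beside 15.5% and 22.6% of all genes. Counting program and vector are partly confounded here, since 2 of 3 intmiS1 libraries were counted by STAR. With the single featureCounts library of intmiS1, an arm of 1 in which 0 genes of the whole table passed, the log2 differences were -3.34 for ICAM1, -1.77 for VWF, 0.97 for SLC2A1, 0.84 for RGS5 and 0.80 for FLT1.

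Differences between the effects of the 2 studies, each against its own control, did not pass for any member. For AAV.miS1 minus StufferOnly, 0 members and 0% of 16537 genes passed in edgeR, with 464 genes at an unadjusted p under 0.05 and 17 genes and 0 members by DESeq2. The ICAM1 difference was -0.38 (interval -2.39 to 1.64) and that of PECAM1 0.00 (interval -1.81 to 1.81). VWF had the largest, -0.99 (interval -1.87 to -0.12, unadjusted p = 0.0284 in edgeR). For AAV.miS1 minus intmiS1, 0 members and 0% of genes passed in edgeR and 2865 genes had an unadjusted p under 0.05. ICAM1 differed by 2.40 (interval 0.29 to 4.50, edgeR adjusted p = 0.236) and SLC2A1 by -0.94 (interval -1.55 to -0.34, edgeR adjusted p = 0.161), and DESeq2 called SLC2A1 as 1 of 400 genes.

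Among the 6 lists related to vessels and adhesion, that of the leukocyte partners of ICAM1 and VCAM1 had the highest median with AAV.miS1 and with StufferOnly. Of 11 leukocyte integrin and selectin ligand genes tested with AAV.miS1, 8 rose and 0 fell, and the median log2 fold change was 2.99, beside 0.02 over all genes. ITGB2, the common chain of the integrins that bind ICAM1, averaged 254 ± 115 CPM with AAV.miS1 and 35.4 ± 11.1 CPM with vehicle (SD, n = 6 and n = 4), and ITGA4, the chain that binds VCAM1, 97.8 ± 75.8 CPM and 2.67 ± 2.20 CPM. FERMT3, a leukocyte integrin activator, rose by log2 4.35 (SE 0.73, edgeR adjusted p = 0.0275). With StufferOnly 11 of 12 rose, among them ITGAL, the other chain of an ICAM1 receptor, at 87.6 ± 4.86 CPM against 4.69 ± 0.981 CPM with empty capsid (SD, n = 3 each), and the median was 2.61. TLN1, which links integrins to actin, rose by 1.30 and ITGA4 by 3.22 (edgeR adjusted p = 0.0194 each). With miSCA7Stuffer 0 of 12 were called with all libraries (median 1.66) and 11 without replicate 1 (median 2.07, ITGAL, FERMT3 and ITGAX first). With intmiS1 0 of 12 were called against empty capsid (median 0.37), and against StufferOnly 8 were lower, led by ITGA4, FERMT3 and TLN1, beside 8.46% of all genes. The shares of all genes called higher were 7.22% with AAV.miS1, 11.6% with StufferOnly and 15.6% with miSCA7Stuffer without replicate 1.

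**Figure D4:**
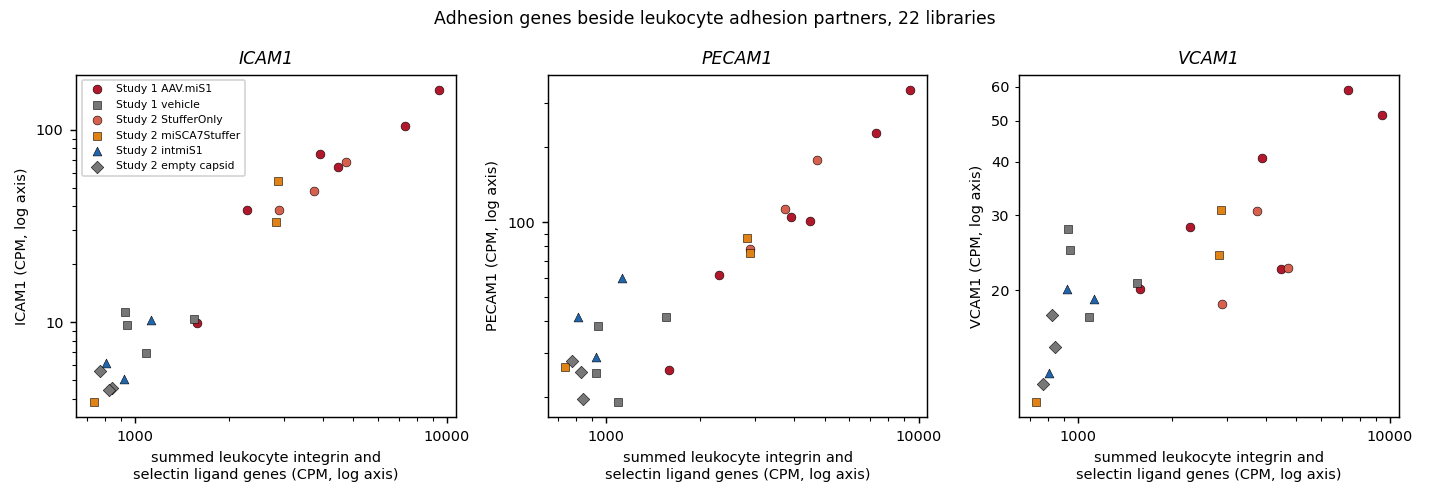
Levels of ICAM1, PECAM1 and VCAM1 (y axes, CPM, log scale) against the summed level of the 12 leukocyte integrin and selectin ligand genes (x axes, CPM, log scale) in 22 libraries. Levels are scaled within each study, so points are to be read within a study. In Study 1 the libraries summing to 2293 CPM or more held ICAM1 at 38.2 CPM or more and the others at 11.2 CPM or less, and in Study 2 those summing to 2827 CPM or more held it at 33.2 CPM or more and the others at 10.2 CPM or less.

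Other endothelial adhesion genes moved in part. With AAV.miS1 1 of 10 tested rose, near the 7.22% of all genes: CD99, a protein used in leukocyte passage through junctions (log2 1.18, SE 0.30, edgeR adjusted p = 0.0399). The median was 0.21. With StufferOnly 3 of 13 rose, beside 11.6% of all genes, and the median was -0.08: SELE, the selectin of activated endothelium, at 0.634 ± 0.175 CPM against 0.0458 ± 0.0532 CPM with empty capsid (SD, n = 3 each), ICAM2 by log2 2.27 and F11R by 1.499 (edgeR adjusted p = 0.0435 and 0.0472). SELE is thus called at a very low level. SELP, the selectin stored beside VWF, was at 0 in all 4 vehicle libraries. In miSCA7Stuffer without replicate 1, F11R was higher by 1.60, and ACKR1, a chemokine carrier of venules, and CD99L2 were lower by log2 differences of -1.64 and -0.69, for 2 called higher and 3 lower of 13, near the 15.6% and 16.8% of all genes called in that fit. ACKR1 stood at 33.8 to 35.5 CPM with empty capsid but had a median of 1.18 and a highest level of 34.6 CPM with intmiS1. STAR counted intmiS1 replicates 1 and 2, and the part of the counting program in ACKR1 levels was not tested. Against StufferOnly, intmiS1 had CD99L2 higher by 0.97 and ICAM2 lower by a log2 difference of -3.29, for 1 higher and 1 lower of 13, beside 3.4% and 8.46% of all genes.

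Barrier junction and transporter genes fell more often than they rose with StufferOnly. Of 19 tested, 5 fell and 2 rose, beside 3.81% and 11.6% of all genes, with a median of -0.18. SLCO1A2, an organic anion transporter of brain capillaries, had 49.1 ± 5.98 CPM with StufferOnly and 118.8 ± 14.97 CPM with empty capsid (log2 -1.28, SE 0.16, edgeR adjusted p = 0.0133). TJP1, the junction scaffold ZO-1, fell by 0.74 on the log2 scale (edgeR adjusted p = 0.0198), and SLCO2B1, another organic anion transporter, rose by 2.06 (edgeR adjusted p = 0.0199). With AAV.miS1, SLCO2B1 alone of 17 genes was called (log2 2.14, edgeR adjusted p = 0.0464, median of the list -0.02), near the 7.5% of all genes called either way. In miSCA7Stuffer without replicate 1, 3 were higher and 5 lower of 19, near the 15.6% and 16.8% of all genes in that fit, with SLCO2B1 at 1.47, the lactate carrier SLC16A1 at -1.06 and the insulin receptor INSR at -0.68. With intmiS1 0 of 19 were called against empty capsid (median 0.15). Against StufferOnly 5 were higher and 2 lower, beside 3.4% and 8.46% of all genes, with TJP1 at 0.83, SLCO1A2 at 0.82 and SLCO2B1 at -1.90.

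Genes of endothelial identity passed at near the share of all genes with AAV.miS1 and with StufferOnly. FLI1, a transcription factor of endothelium and blood cells, was the 1 of 16 called with AAV.miS1 (log2 1.66, SE 0.44, edgeR adjusted p = 0.0466), beside 7.5% of all genes called either way. With StufferOnly FLI1 rose by 1.64 (edgeR adjusted p = 0.0276) and ROBO4, a receptor that stabilises vessels, fell by 1.05 on the log2 scale (edgeR adjusted p = 0.0452). That made 1 higher and 1 lower of 16, beside 15.4% of all genes called either way, and 12 of 16 lay below 0 (median -0.46). In miSCA7Stuffer without replicate 1, FLI1 was at 1.28, KDR, the main VEGFA receptor, at -1.23 and EGFL7 at -1.03. These were the 1 higher and 2 lower of 16, below the 32.4% of all genes called either way in that fit. Against StufferOnly, 4 were higher and 1 lower with intmiS1, beside 3.4% and 8.46% of all genes, with NOS3, the endothelial nitric oxide synthase, at 0.76, ROBO4 at 1.17 and FLI1 at -1.50. The summed level of the 16 genes was 193 to 347 CPM with AAV.miS1 and 177 to 307 CPM with vehicle, and 196 to 207 CPM with StufferOnly, 158 to 210 CPM with miSCA7Stuffer, 206 to 257 CPM with intmiS1 and 158 to 241 CPM with empty capsid.

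Mural cell genes were 0 of 10 called with AAV.miS1 (median -0.18). With StufferOnly, the proteoglycan CSPG4 fell by 0.76 on the log2 scale and HIGD1B rose by 0.87 (edgeR adjusted p = 0.0390 and 0.0416). That made 1 lower and 1 higher of 13 tested (median -0.02), near the 15.4% of all genes called either way. HIGD1B had 11.8 to 17.8 CPM with StufferOnly and 7.22 to 8.80 CPM with empty capsid, both counted by featureCounts. With intmiS1, where STAR counted replicates 1 and 2, it had 1.33 to 9.31 CPM (median 3.15). The part of the counting program in HIGD1B levels was not tested. In miSCA7Stuffer without replicate 1, ANPEP was at 2.03, CSPG4 at -0.82 and the smooth muscle myosin MYH11 at 0.45, for 3 higher and 2 lower of 13, near the 32.4% of all genes called either way in that fit. NOTCH3, a receptor of vascular smooth muscle, and CSPG4 were higher by 1.01 and 0.71 with intmiS1 than with StufferOnly, for 2 higher and 0 lower of 13, beside 3.4% and 8.46% of all genes. Among vascular growth factors and receptors, NRP2 rose with AAV.miS1 (log2 2.32, SE 0.53, edgeR adjusted p = 0.0315), the 1 of 14 called (median -0.22), near the 7.5% of all genes. With StufferOnly NRP1 and NRP2, co-receptors for VEGF and semaphorins, rose by 1.47 and 2.39, and S1PR1, a receptor that tightens endothelial junctions, fell by 1.59 on the log2 scale. That list had 2 up and 2 down of 15 (median -0.42), beside 11.6% and 3.81% of all genes. In miSCA7Stuffer without replicate 1, NRP2 was at 1.63, S1PR1 at -2.02 and VEGFA at -2.32, for 1 higher and 3 lower of 15, below the same 32.4%. Against StufferOnly, intmiS1 had NRP2 at -2.37, NRP1 at -0.98 and PDGFA at 0.66, for 3 higher and 2 lower of 15, beside 3.4% and 8.46% of all genes.

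**Figure D5:**
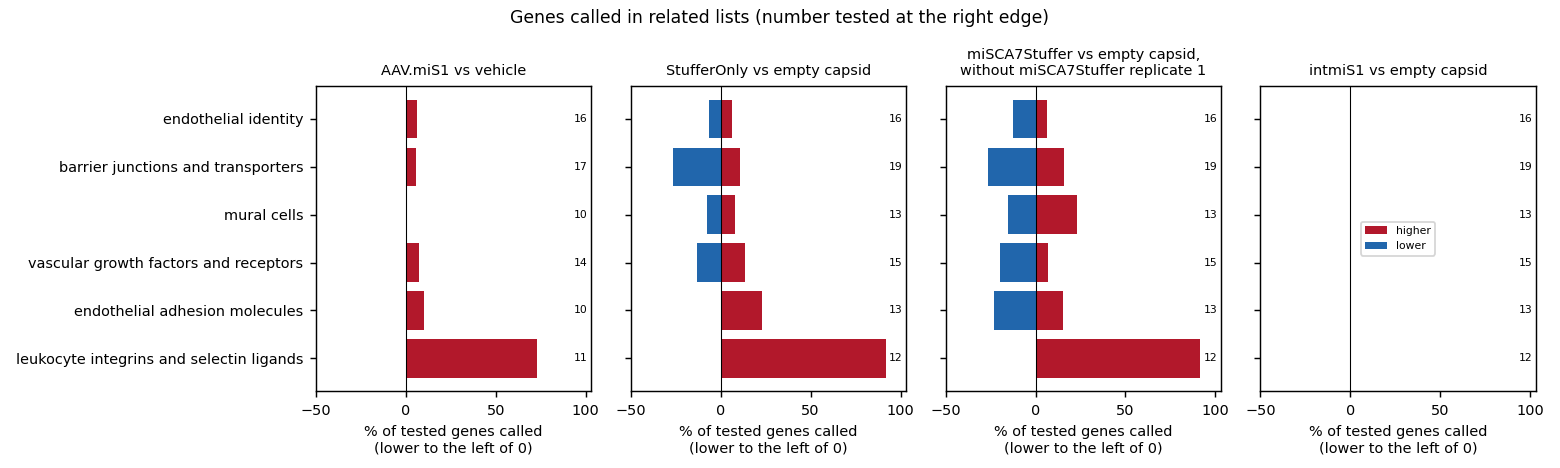
Share of tested genes called higher (red, right of 0) or lower (blue, left of 0) in 6 related lists, as a percentage on the x axes, with the number tested at the right edge. Panels are AAV.miS1 against vehicle, then StufferOnly, miSCA7Stuffer without replicate 1, and intmiS1 against empty capsid. The leukocyte integrin and selectin ligand list had 8 of 11, 11 of 12, 11 of 12 and 0 of 12 called. Of all genes 7.5%, 15.4%, 32.4% and 0% were called in either direction.

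Markers of other cells moved in the same libraries. Beside the counts below, 7.22% of all genes were called higher with AAV.miS1 and 11.6% with StufferOnly. For miSCA7Stuffer without replicate 1 the shares were 15.6% higher and 16.8% lower. Of macrophage and microglia markers, 6 of 8 rose with AAV.miS1 and 6 of 8 with StufferOnly, while 1 and 2 of the 8 lay below 0. CX3CR1 averaged 101 CPM with AAV.miS1 against 171 CPM with vehicle, and 39.0 CPM with StufferOnly against 137 CPM with empty capsid. The 9 genes summed to 597 to 3519 CPM with AAV.miS1 and 395 to 685 CPM with vehicle. In Study 2 they summed to 1308 to 1697 CPM with StufferOnly, 347 to 1078 CPM with miSCA7Stuffer, 362 to 528 CPM with intmiS1 and 395 to 503 CPM with empty capsid. T and NK cell markers rose in 3 of 5 with AAV.miS1 (summed 14.98 to 165 CPM against 5.97 to 11.7 CPM with vehicle, where LCK was at 0) and in 6 of 7 with StufferOnly (46.5 to 81.6 CPM against 6.47 to 8.13 CPM with empty capsid, where GZMA was at 0). B and plasma cell markers rose in 1 of 2 with AAV.miS1 (11.6 to 1570 CPM against 2.32 to 41.5 CPM with vehicle) and 4 of 6 with StufferOnly (84.2 to 590 CPM against 2.82 to 3.39 CPM with empty capsid, where CD79B was at 0). The 41.5 CPM is that of vehicle replicate 2, with 87741 counts, and the other vehicle libraries had 5.62 CPM or less. Fibroblast and meningeal markers rose in 3 of 6 with each vector (178 to 1422 CPM with AAV.miS1 against 166 to 196 CPM with vehicle, and 288 to 1050 CPM with StufferOnly against 145 to 172 CPM with empty capsid). Without miSCA7Stuffer replicate 1, 7 of 7 T and NK cell, 5 of 8 macrophage and microglia, 3 of 6 B and plasma cell and 5 of 6 fibroblast and meningeal markers were higher, and 1 each of the macrophage and fibroblast lists was lower. The part of all these markers in the rises of ICAM1, PECAM1, VWF, VCAM1, CD99, ICAM2, F11R, FLI1 and SLCO2B1 was not tested. Red cell and platelet markers summed to at most 5.01 CPM in any library, and GP9 was at 0 in all 22.

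Markers of neurons, astrocytes and oligodendrocytes had negative medians with AAV.miS1, with StufferOnly and with miSCA7Stuffer without replicate 1. The shares of all genes called lower in these comparisons were 0.284%, 3.81% and 16.8%, in that order. Of 8 neuron markers, 1 fell with AAV.miS1 (CALB1, a calcium buffer of Purkinje cells, at log2 -2.11, edgeR adjusted p = 0.0467) and 0 with StufferOnly, and the list medians were -1.07 and -1.05. Astrocyte markers had 0 of 6 called with each vector, at medians of -0.72 and -0.82, and oligodendrocyte markers 0 of 5 and 3 of 5 lower, at -0.64 and -0.91. Of the astrocyte markers 5 of 6 lay below 0 with each vector. GFAP averaged 12699 CPM with AAV.miS1 against 8407 CPM with vehicle, and 7764 CPM with StufferOnly against 6111 CPM with empty capsid. The 6 astrocyte genes summed to 2658 to 25888 CPM with AAV.miS1 and 12784 to 15218 CPM with vehicle. The fit without miSCA7Stuffer replicate 1 had 6 of 8 neuron markers lower (median -2.62), 4 of 6 astrocyte markers (median -1.68) and 1 of 5 oligodendrocyte markers (median -0.54). Choroid plexus markers had 0 of 1 and 0 of 4 called, and summed to at most 109 CPM. The part of these shifts in the levels of SLC2A1, FLT1, RGS5, MFSD2A and the barrier genes was not tested.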

How the data were processed

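RNA was sequenced from ribosome-depleted directional libraries, per the labels' protocols. The deposited values are raw counts, which the authors took from STAR for Study 1 and 2 intmiS1 libraries and from featureCounts for the other 10, with reads over several genes counted in each, per the file headers and names. The submitters' processing notes name STAR 2.6.0c and DESeq2. The genome build and strand setting of the featureCounts tables are not stated, so reads of a gene and of an antisense partner may not be told apart there. In a RefSeq annotation of another assembly PECAM1, FLT1, SLC2A1, RGS5 and ICAM1 overlap other genes. Study 1 used the STAR column of the library's strand and intmiS1 the unstranded column, to be like featureCounts.

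Symbols came from the supplied Ensembl names. Genes passed edgeR's filter (minimum count 10, total 15), were scaled by TMM and tested by quasi-likelihood (edgeR 4.0.16, limma 3.58.1, R 4.3.3) with Benjamini-Hochberg adjustment over all genes, and DESeq2 1.42.0 was an alternative. The comparisons among StufferOnly, miSCA7Stuffer and empty capsid shared 1 fit of their 9 libraries. Those of intmiS1 shared 1 fit of all 12 Study 2 libraries, and the differences between studies 1 fit of all 22. The spread behind the StufferOnly calls thus includes the miSCA7Stuffer libraries. Exact permutation tests were 60, and 3 against 3 libraries cannot give a p below 0.1. The tests were checked on simulated counts. Among list genes, those named are called genes with the smallest p, up to 3 per list and comparison, and others named were chosen after their values were seen. In the lists ABCB1, ICAM3, ITGAD, MAG, AQP1, HBB and HBA2 had no identifier. The members and lists were chosen with earlier results of these data known. Levels are not comparable across studies or between genes, and p-values measure the spread between animals. The 12 small RNA libraries were not used.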

Additional observations from a re-analysis of the deposited data

Results flagged for a closer look

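VWF stood at 330 CPM in AAV.miS1 replicate 3, far from the other 5 libraries of its group at 129 to 198 CPM. FLT1 stood at 51.9 CPM in vehicle replicate 2, below the other 3 at 91.8 to 97.0 CPM, and rests there on 5 reads. These were 2 of 20 groups checked, and chance marks about 1 in 20.

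The effects of intmiS1 and StufferOnly, set against the same empty capsid libraries, differed in 5 genes. The log2 difference of intmiS1 from StufferOnly was -2.88 for ICAM1 and -1.29 for VWF, and it was 1.00 for SLC2A1, 1.204 for RGS5 and 1.10 for FLT1, each with an edgeR adjusted p of 0.0340 or less. Of the 3 intmiS1 libraries 2 were counted by another program, and the part of that in these differences cannot be told apart.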

How the results depend on the processing

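Of 1110 values of members under alternatives, 977 kept direction and side of the threshold, 55 lost a call, 25 gained one and 53 changed sign, the last never for a called member. The number of members called with AAV.miS1 was 2 by DESeq2, 0 with the unmapped set as covariate, 0 in the libraries over 15% unmapped, and 0 to 3 with 1 library left out. It was 7 for StufferOnly in the fit of its 6 libraries and 0 to 4 with 1 left out, 3 for miSCA7Stuffer by DESeq2 and 0 to 6 with 1 left out. For intmiS1 against StufferOnly it was 0 with the 1 featureCounts library of intmiS1, an arm too small to show dependence on the counting, with ICAM1 at -3.34 and RGS5 at 0.84, and 0 to 5 with 1 left out, and for AAV.miS1 minus intmiS1 it was 1 by DESeq2. The shares of all genes called in these fits are not all given here, so the counts are not results about the set. The cause of the changes in these counts was not tested.

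Sign changes under other settings were as follows. For AAV.miS1 minus StufferOnly, CLDN5 was -0.0081 with RLE factors, -0.042 by DESeq2 and -0.018 unfiltered, and PECAM1 -0.0039, -0.047 and -0.028. In the libraries over 15% unmapped, AAV.miS1 gave MFSD2A 0.52, PDGFRB -0.079 and VCAM1 -0.12. With featureCounts libraries alone, intmiS1 against empty capsid gave VWF -0.16, FLT1 -0.011, MFSD2A -0.23 and RGS5 -0.095.

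With 1 library left out, AAV.miS1 minus StufferOnly ranged from -0.15 to 0.19 for CLDN5, -0.055 to 0.43 for FLT1, -0.0075 to 0.42 for MFSD2A, -0.45 to 0.34 for PECAM1, -0.0090 to 0.31 for SLC2A1 and -0.15 to 0.23 for VCAM1, and AAV.miS1 minus intmiS1 from -0.16 to 0.54 for VWF. PDGFRB ranged from -0.018 to 0.22 with AAV.miS1 and -0.17 to 0.041 with StufferOnly, CLDN5 from -0.40 to 0.10 with miSCA7Stuffer and VWF from -0.014 to 0.67 with intmiS1. For miSCA7Stuffer against StufferOnly the ranges were -0.41 to 0.14 for MFSD2A, -0.30 to 0.0022 for PDGFRB, -0.066 to 0.40 for RGS5 and -0.45 to 0.28 for VCAM1.

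Deviations from the group mean of same-numbered Study 2 libraries correlated at -0.098 to 0.436 over all 12 libraries. Over the 9 counted by featureCounts in the other 3 groups the range was -0.086 to 0.449. Libraries of different number were not compared, so these values cannot show whether same-numbered ones share more than a number. With the replicate block 5 members were called for StufferOnly (FLT1 added) and 6 for intmiS1 against StufferOnly (PECAM1 added). The shares of all genes called with the block are not given here. Vehicle replicate 2, with 87741 counts, and groups of 3 limit what could be detected.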
